A study of Mus musculus with 10 samples.

Results

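The proteins of the cytosolic ribosome were examined as a family in cultured mouse B cells with and without the transcription factor Irf4. Members were taken by name: probe sets with exactly 1 gene symbol of the form Rpl or Rps followed by a digit, together with Rplp0, Rplp1, Rplp2 and Rpsa where present, without Rps6k kinases and pseudogene symbols. The brightest probe set over all 10 arrays stood for each gene. This gave 50 of the 18193 genes with 1 symbol on the array, of which 48 were bright enough to be tested. By their names and known roles, 21 of the 50 are proteins of the 40S (small) subunit, 22 are proteins of the 60S (large) subunit, and 6 are paralogues of such proteins. The remaining one, Rps19bp1, encodes a protein that binds Rps19 and is no part of the ribosome. Rpl3l and Rps16 lay under the detection filter, with mean signals of 12.5 and 1.15. A further 31 ribosomal protein symbols appeared only on probe sets that list several symbols and have no value of their own here.

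The 2 groups were Irf4+/+ and Irf4-/- littermate mice of strain C57BL/6 at 12 weeks of age, with 5 samples each. Splenic B cells were purified by magnetic removal of other cells and grown for 3 days with an antibody against mouse CD40 and IL-4 at 20 ng/ml, so both groups were activated and no unstimulated cells are in the comparison. Labelled cRNA from 6 ug of total RNA was hybridised to 1-colour Affymetrix arrays. Whether the 5 samples per genotype were separate mice or cultures is not stated, nor is the removed part of Irf4. All p-values thus reflect variation among these samples only, and that variation may be technical.

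Each cytosolic ribosome holds 1 copy of nearly all of its proteins, and their messages are among the most abundant of a dividing cell. Most of these messages begin with a C followed by a run of pyrimidines, the terminal oligopyrimidine (TOP) motif, through which mTORC1 and the La-related protein Larp1 control their translation. Activated B cells enlarge before they divide, and MYC then drives the synthesis of ribosomal RNA and of the nucleolar factors that assemble subunits. Message levels, the quantity measured here, do not show how much of a TOP message is translated.

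The 30 bases around the annotated transcript start show this shared feature and how far it varied among the genes described below. The windows run from 10 bases before to 20 bases from the start, 5′ to 3′ on the gene's strand, from RefSeq on GRCm38.p6, and capitals mark the longest run of pyrimidines. Where RefSeq gave a gene several starts, the window with the longest run is shown. Rps6 and Rps27 did not pass the test between genotypes, Rplp2, Rpl35 and Rpl37 were higher in Irf4-/- samples, and Rpl12, Rps25 and Rps27l were lower.
Rps6, chr4:86857348-86857377, minus strand: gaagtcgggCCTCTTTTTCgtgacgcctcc
Rps27, chr3:90213629-90213658, minus strand: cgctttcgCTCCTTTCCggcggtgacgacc
Rplp2, chr7:141447641-141447670, plus strand: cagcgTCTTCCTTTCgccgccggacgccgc
Rpl35, chr2:39005112-39005141, minus strand: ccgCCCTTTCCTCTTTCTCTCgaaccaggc
Rpl37, chr15:5116603-5116632, plus strand: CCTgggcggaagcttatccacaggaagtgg
Rpl12, chr2:32961702-32961731, plus strand: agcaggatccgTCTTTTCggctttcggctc
Rps25, chr9:44407704-44407733, plus strand: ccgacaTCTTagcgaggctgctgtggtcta
Rps27l, chr9:66946076-66946105, plus strand: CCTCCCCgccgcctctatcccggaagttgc
Runs of 10 pyrimidines or more stood at Rps6, Rplp2 and Rpl35, while Rpl37, which was higher, and Rps25, which was lower, had short ones. Of the 50 genes, 44 had an entry in the promoter table; Rps20, Rps4l, Rps14, Rpl8, Rpl7 and Rps29 did not. A run of at least 7 pyrimidines lay in this window in 24 of the 44 (54.5%), against 20.5% of the 27025 genes in the table. A C exactly at the annotated start followed by at least 4 pyrimidines was found in 8 (18.2%), against 3.01% of all genes. These 8 were Rps6, Rps10, Rps18, Rps27, Rpl14, Rpl35, Rpl38 and Rplp2. The starts are those of the annotation and were not mapped in these samples. A gene without the feature here may thus still have a TOP start. In the 300 bases from 250 before to 50 after the start, read on both strands, the ETS motif CCGGAAG occurred in 21 of the 44 (47.7%), against 9.93% of all genes. The YY1 motif AAGATGGC occurred in 9.09% against 3.19%. The E-box CACGTG, which MYC binds, occurred in 9.09% against 8.09%. TATAAA occurred in 13.6% against 15.7%. A match describes the letters and is not evidence of binding.

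The deposited signals put the family at the top of the array's range. Of the 48 tested members, 35 had a mean signal over all arrays above 6306, the 99th percentile of all probe sets, and the highest member mean was 21185 for Rps18. The highest signal of any probe set on an array lay between 19587 and 25198. Arrays have no read depth, and 5 arrays per genotype limit the precision. Correlations between arrays of 1 genotype were 0.977 to 0.985. The brighter of the tested Irf4 probe sets read 3761 ± 211 (SD, n = 5) in Irf4+/+ and 2792 ± 128 in Irf4-/- samples (log2 fold change -0.43, limma adjusted p = 5.01e-06). With the dimmer one in its place the value was -0.40 and did not pass (adjusted p = 0.0571). Either may lie outside the removed exons and so checks nothing about the labels. Among lists of markers, 5 of 5 B cell genes rose, with summed signals of 19656 to 22055 in Irf4+/+ and 37082 to 41678 in Irf4-/- samples. Of the natural killer cell genes 7 of 7 rose (907 to 1121 against 7187 to 10548), as did 3 of 5 macrophage genes (409 to 501 against 1214 to 1440) and 3 of 4 granulocyte genes (81.7 to 182 against 603 to 1051). Of 2 tested T cell genes 1 rose, and Cd3e, Cd3d, Cd3g and Cd4 were under the filter, as were C1qa, C1qb and C1qc of the macrophage list and the 3 erythroid genes on the array. All 4 plasma cell genes fell. The part of these markers in the results below was not tested. In such bulk samples, fewer cells of a type and less RNA per cell cannot be told apart.

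Most ribosomal protein messages had small differences between the genotypes, and how many passed the test depended on which arrays were kept. The largest called differences were those of Rpl12 and Rps27l, which were 1.98 and 1.53 times as high in Irf4+/+ as in Irf4-/- samples. With limma on log2 signals, adjusted over 12253 genes, 12 of 48 members (25%) passed an adjusted p of 0.05: 8 were higher and 4 lower in Irf4-/- samples. Of all genes 47.2% passed (23.3% higher, 23.9% lower). Without Irf4-/- replicate 4 the order of these shares turned, with 25 of 48 members (52.1%) against 46.5% of all genes. Leaving out Irf4+/+ replicate 2 or 4, or Irf4-/- replicate 1, 2 or 5, gave 16.7% of members. The share of all genes was then 44.5% to 45.7%. With all 10 arrays, 67.3% of the 2476 genes with a mean signal of at least 1000 passed. The signals of the groups did not overlap for 3 members, Rpl12, Rps27l and Rps25, against 35.7% of all genes. A difference of at least 1.5-fold was reached by 3 members, Rpl12, Rps27l and Rps4l, the last of which did not pass the test, against 21.6% of all genes. The median log2 fold change, Irf4-/- over Irf4+/+, was 0.067 for the members and 0.004 for all genes. It was above 0 for 36 members and below 0 for 12.

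Calls were spread over both subunits. Among 20 tested proteins of the 40S subunit 3 were higher (Rps19, Rps15 and Rps7) and 1 was lower (Rps25), with a median of 0.065. Among 22 of the 60S subunit 5 were higher (Rpl37, Rpl27, Rpl11, Rplp2 and Rpl35) and 1 was lower (Rpl12), with a median of 0.076. No test of the difference between the subunits was made. All 8 higher calls were among the 36 subunit proteins with a mean signal of at least 1000, and both lower ones were among the 6 dimmer proteins. The higher calls are 22.2% of the 36. Of all 2476 genes with such a mean signal, 29% were higher and 38.3% lower. Of the 36 none was called lower with limma, and each of the 11 with an unadjusted p under 0.05 was above 0; with quantile normalization 1 of them, Rps2, was lower.

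**Figure D1:**
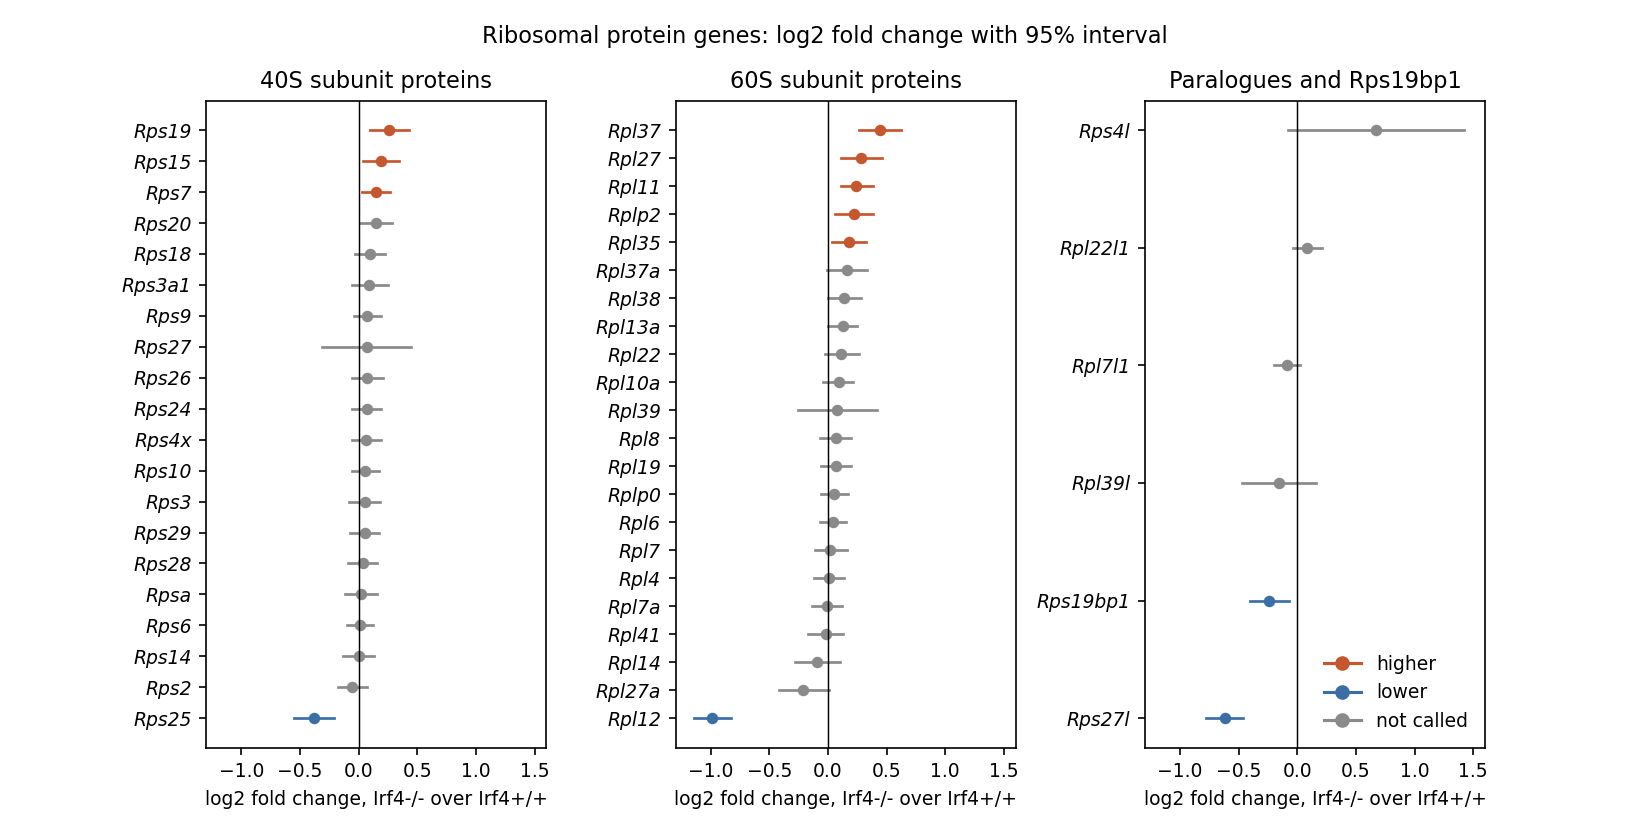
Log2 fold change (Irf4-/- over Irf4+/+, x axis) of each of the 48 tested members, with its 95% interval from limma, for the 40S proteins, the 60S proteins, and the paralogues with Rps19bp1. Most points lie between 0 and 0.3, while Rpl12 at -0.99, Rps27l at -0.62 and Rps25 at -0.38 stand to the left; under quantile normalization or median centring the median of all members moves from 0.067 to just below 0.

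Rps27l showed the clearest fall of a bright probe set. It is a paralogue of the small-subunit protein Rps27 and is known as a target of p53. Its signals in Irf4+/+ samples were 6062, 5061, 5620, 5469 and 6135, and in Irf4-/- samples 4168, 3497, 3832, 3086 and 3925. Every Irf4-/- value was below every Irf4+/+ value, with means of 5669 ± 443 and 3702 ± 420 (SD, n = 5 each). The level in Irf4+/+ samples was 1.53 times that in Irf4-/- samples (log2 fold change -0.62, SE 0.0767, limma adjusted p = 4.53e-06). Its 3 probe sets had log2 fold changes of -0.62, -0.65 and -0.62, all of them called lower with no overlap between groups.

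Rpl12, which sits at the base of the stalk where elongation factors dock, fell most of all members. Its signals were 374, 412, 429, 392 and 405 in Irf4+/+ samples and 212, 195, 196, 202 and 190 in Irf4-/- samples. The groups were far apart and each was tight, at 402 ± 20.6 and 199 ± 8.61. The Irf4+/+ level was 1.98 times the other (log2 fold change -0.99, SE 0.073, limma adjusted p = 1.13e-08). This call rests on 1 dim probe set, and the only probe set of Rpl12 with 1 symbol.

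Rps25, a small-subunit protein needed for initiation at several internal ribosome entry sites, fell less. It read 759, 669, 744, 672 and 705 in Irf4+/+ and 642, 557, 474, 568 and 499 in Irf4-/- samples. The groups lay close together but did not overlap, at 710 ± 41 and 548 ± 65.6 (log2 fold change -0.38, SE 0.0802, limma adjusted p = 0.000962). This call also rests on 1 dim probe set, with a mean of 629. Rps19bp1, whose product is also known as an activator of the deacetylase Sirt1, read 737, 628, 654, 623 and 707 in Irf4+/+ and 630, 557, 573, 482 and 597 in Irf4-/- samples. Its groups overlapped at 1 Irf4-/- sample, the value of 630, with a log2 fold change of -0.24 (SE 0.0779, limma adjusted p = 0.0188). The call was lost without Irf4+/+ replicate 1 or without Irf4-/- replicate 4, where the adjusted p reached 0.0512.

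Rpl37, a small zinc-binding protein of the large subunit, had the highest of the called rises, on 1 probe set of the type _x_at with a mean of 3239. Its signals were 2853, 2319, 2681, 2730 and 3139 in Irf4+/+ samples and 4132, 3651, 3565, 3107 and 4208 in Irf4-/- samples. Only Irf4-/- replicate 4, at 3107, fell inside the Irf4+/+ range. The means were 2745 ± 297 and 3733 ± 450, a 1.36-fold difference (log2 fold change 0.44, SE 0.0866, limma adjusted p = 0.000471). Rpl37, Rpl12, Rps25 and Rps27l were the 4 of the 12 called members that kept their call in every alternative that could be computed for them. Of these, Rpl37, Rpl12 and Rps25 had 1 tested probe set each, so other choices of probe set could not test their calls. For Rpl37 no value was left without the types _s_at, _x_at and _a_at.

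Rpl27, a large-subunit protein, rose 1.22-fold. It read 14844, 12838, 14819, 13614 and 14411 in Irf4+/+ and 19111, 19289, 15762, 13935 and 18290 in Irf4-/- samples. Irf4-/- replicate 4 again lay among the Irf4+/+ values, and the other 4 lay above them (log2 fold change 0.28, SE 0.0812, limma adjusted p = 0.00837). Its other tested probe sets, at 0.15 and 0.33, were also called higher. Rps19, the small-subunit protein most often mutated in Diamond-Blackfan anaemia, read 15021, 13062, 13807, 13819 and 13709 in Irf4+/+ and 19062, 17877, 15826, 13412 and 17781 in Irf4-/- samples. The same 4 Irf4-/- samples lay above the Irf4+/+ range and replicate 4 inside it (log2 fold change 0.26, SE 0.0784, limma adjusted p = 0.0102).

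Rpl11 forms, with Rpl5 and the 5S ribosomal RNA, the particle that binds the p53 regulator Mdm2 when ribosome assembly is disturbed. It read 10029, 9269, 10457, 9904 and 10549 in Irf4+/+ and 12808, 12566, 12053, 10099 and 12029 in Irf4-/- samples. Without replicate 4 the groups would not overlap (log2 fold change 0.24, SE 0.0632, limma adjusted p = 0.00445). The other 4 higher members, Rplp2 of the stalk (0.22), Rps15 (0.19), Rpl35 (0.18) and Rps7 (0.15), differed by 1.11-fold to 1.16-fold, with limma adjusted p of 0.022, 0.0325, 0.0447 and 0.0359. Rps15 and Rps7 each had a second probe set with a larger difference, 0.32 and 0.30, and for both of these the groups did not overlap.

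**Figure D2:**
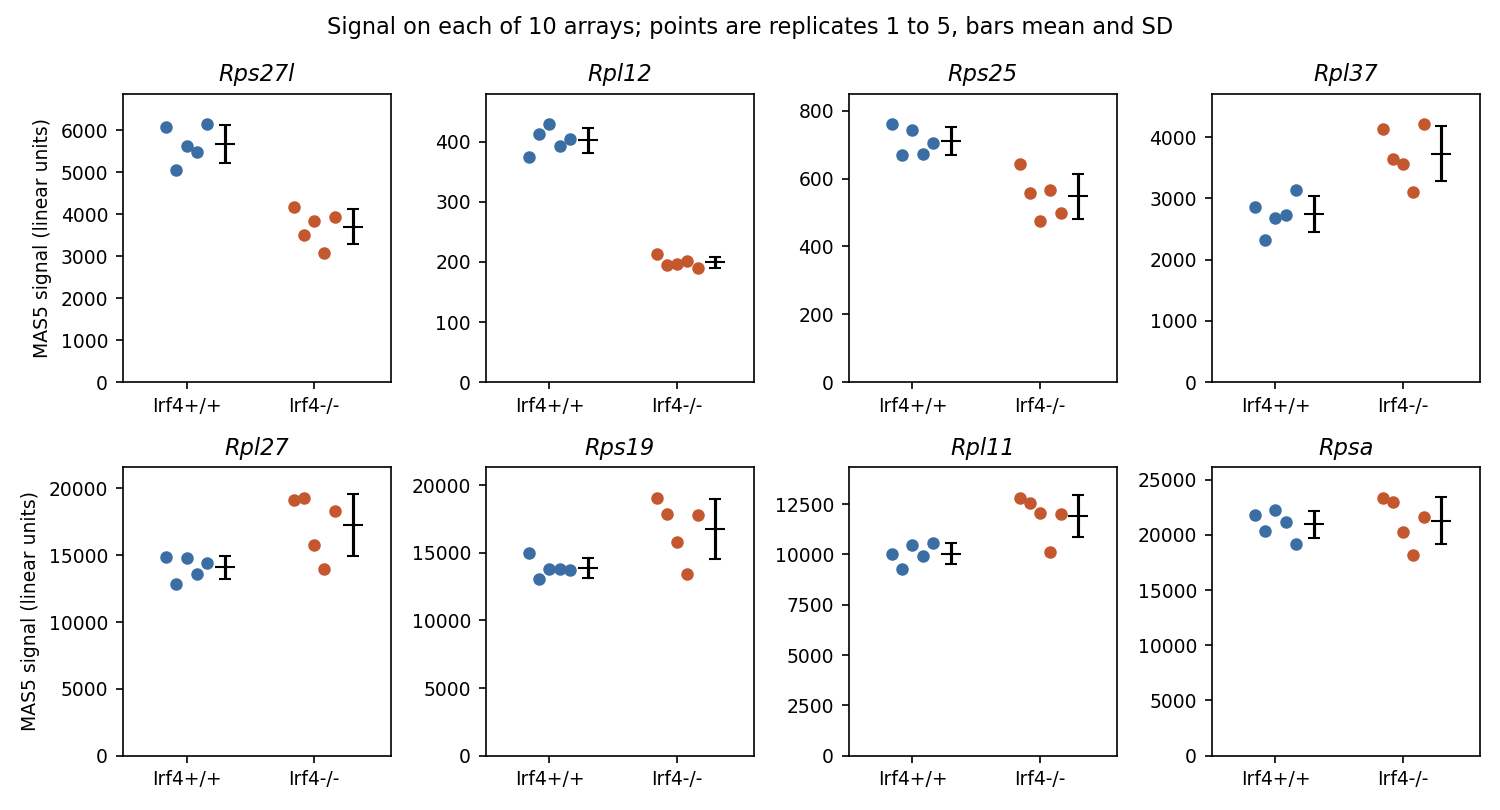
MAS5 signal (linear units, from 0) on each array for 8 members, with points in the order of replicates 1 to 5 and the mean with its SD beside them. Rps27l, Rpl12 and Rps25 separate the genotypes downward without overlap; in Rpl37, Rpl27, Rps19 and Rpl11 the Irf4-/- samples lie higher except replicate 4, and Rpsa, at 20959 and 21293 on average, shows no such separation.

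Replicate 4 of Irf4-/- stood apart across the whole family. Of the 36 bright subunit proteins, 35 had their lowest Irf4-/- signal on that array, and 24 had their lowest signal of all 10 arrays there. Replicate 1 of Irf4-/- held the highest signal of all arrays for 27 of the 36. The mean log2 deviation of the 36 from their 10-array means was -0.03, -0.11, 0.01, -0.06 and -0.06 in Irf4+/+ samples and 0.17, 0.13, -0.00, -0.16 and 0.11 in Irf4-/- samples. The family level of Irf4-/- replicate 4 was thus the lowest of the 10 arrays, and those of replicates 1, 2 and 5 the highest. For all other genes, of all signal levels, the mean deviations stayed within -0.08 to 0.01 in Irf4+/+ and -0.00 to 0.04 in Irf4-/- samples. Some bright genes outside the family also had their lowest signal on Irf4-/- replicate 4: Eef1a1 (17890), Tpt1 (15403) and Eef1b2 (8960). Eif4a2 had its highest there (7626). The highest signal of any probe set was lowest on that array (19587) and highest on Irf4-/- replicate 1 (25198). Whether the low level was particular to the family was not tested. The median SD of a bright subunit protein within Irf4-/- samples was 0.136 on the log2 scale, against 0.060 within Irf4+/+ samples, while over all genes the values were 0.157 and 0.167.

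The number of higher calls depended on this array and, less strongly, on others. Without Irf4-/- replicate 4, 21 members were higher and 4 lower (52.1% of 48, against 46.5% of all genes in the same fit), with a median of 0.110. Those 21 included the 8 named above together with, among others, Rpl13a, Rpl22, Rpl22l1, Rps20 and Rps24. Leaving out Irf4+/+ replicate 2 or 4, or Irf4-/- replicate 1, 2 or 5, gave 4 higher calls, and leaving out Irf4+/+ replicate 5 gave 5. The number of lower calls stayed at 3 or 4 whichever array was left out.

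The sign of the family's median and the split of its calls depended on the scaling between arrays. As deposited, 8 members were higher and 4 lower, so that 66.7% of the calls were higher. With quantile normalization the split was 6 to 5 (54.5%), and with arrays centred on their median 1 to 6 (14.3%). With arrays centred on the genes outside the family it was 4 to 6 (40%). Of the calls among all genes, 49.4%, 46.6%, 39.8% and 43.1% were higher, in the same order of scalings. The member medians were 0.067, -0.002, -0.008 and 0.019, beside all-gene medians of 0.004, -0.024, -0.070 and -0.044. Relative to all genes, the family's median was thus above in each scaling, by less than 0.1 on the log2 scale. The 4 lower calls were shared by all 4 scalings. Of the 8 higher ones, only Rpl37 was kept under median centring, where Rpl11, Rpl27 and Rps19 had limma adjusted p of 0.0824, 0.0832 and 0.109.

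The 18S ribosomal RNA control on the array moved with genotype as well. The mean signal of its 3 probe sets was 41.2, 39.8, 27.3, 27.9 and 67.2 in Irf4+/+ samples and 203, 177, 125, 91.8 and 112 in Irf4-/- samples. All Irf4-/- values were above all Irf4+/+ values, at 142 ± 46.5 against 40.7 ± 16.2 (log2 difference 1.72, two-sided exact permutation p = 0.00794, the smallest that 5 against 5 allows). Within Irf4-/- samples, replicate 1 was highest and replicate 4 lowest for both this control and the family. Other arrays did not follow the same order. Irf4-/- replicate 5 had less of the control than replicate 3 (112 against 125) but a higher family level (0.11 against -0.00). Among Irf4+/+ samples, replicate 3 had the lowest control signal (27.3) and the highest family level (0.01). The part of this control in the family's level was not tested.

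**Figure D3:**
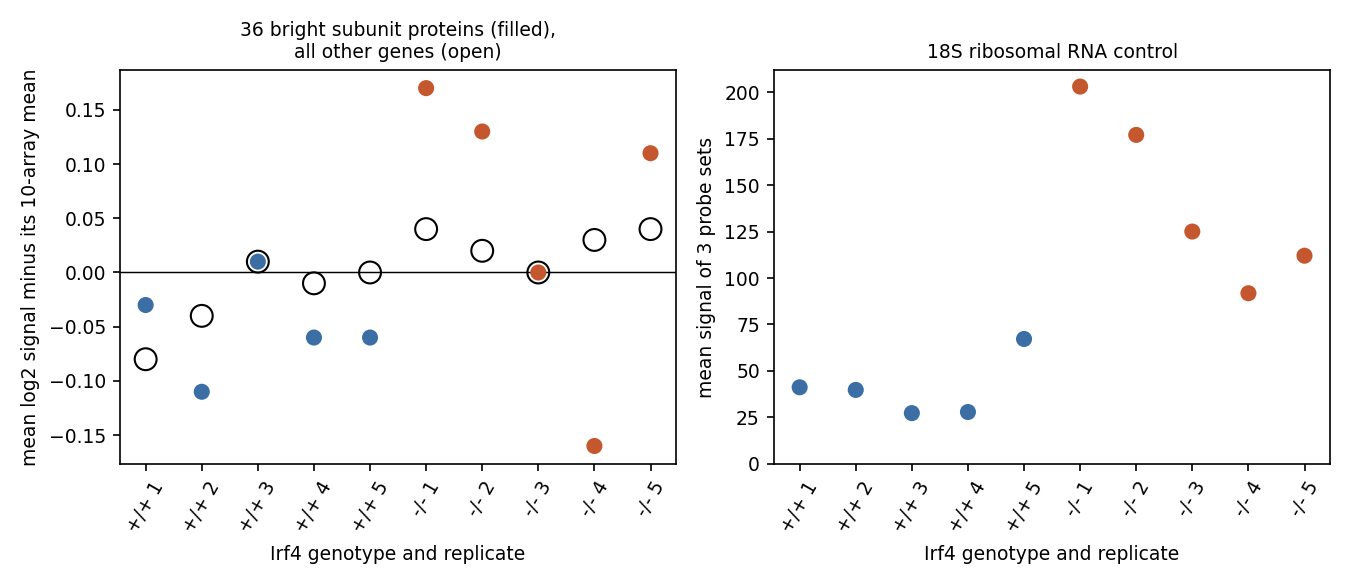
Left, mean log2 deviation of the 36 bright subunit proteins (filled) and of all other genes (open) from their 10-array means, per array; right, the mean signal of the 3 probe sets of the 18S control, from 0. The filled points of Irf4-/- samples run from -0.16 for replicate 4 to 0.17 for replicate 1, those of Irf4+/+ samples from -0.11 to 0.01, and the 18S control is at least 91.8 in Irf4-/- samples and at most 67.2 in Irf4+/+ samples.

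The 28 bright subunit proteins that did not pass the test had log2 fold changes between -0.06 and 0.16, and their 95% intervals, with a median half-width of 0.13, all lay between -0.18 and 0.33. In fold terms these bounds are 0.882 and 1.26, on the deposited scaling and for these probe sets alone. Most of them read close to the top of the arrays' range, and whether signals there are compressed was not tested. Less bright probe sets of some of the same genes were called outside the bounds. Higher were Rps9 at 0.78, Rpl22 at 0.54 and Rps3 at 0.46. Lower were Rps9 at -0.80, Rpl41 at -0.78 and -0.63, Rps20 at -0.66, Rpl37a and Rps24 at -0.60 each, and Rps18 at -0.57. Rps14, Rpl7a, Rps6 and Rpl4 had the smallest differences, at -0.00, -0.01, 0.01 and 0.01. Rps6, the substrate of the S6 kinases, read 1024, 1018, 1073, 1042 and 1001 in Irf4+/+ and 1068, 994, 1014, 1040 and 1076 in Irf4-/- samples. The 2 groups covered the same range, at 1032 ± 27.3 and 1038 ± 34.9 (limma adjusted p = 0.904).

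Rpsa, a small-subunit protein also known as a laminin receptor, read 21787, 20335, 22265, 21190 and 19216 in Irf4+/+ and 23346, 23004, 20263, 18202 and 21648 in Irf4-/- samples. The Irf4-/- samples held both the highest and the lowest value (log2 fold change 0.02, limma adjusted p = 0.847). Rplp0, to which the stalk proteins bind and which often serves as a reference gene, had a difference of 0.05 (17203 ± 581 against 17855 ± 1346, limma adjusted p = 0.482). The dimmer members were less well bounded: the intervals of all 36 members not called ran from -0.47 to 1.42.

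On the brightest probe set of each gene, Rps27l was the 1 of 5 tested paralogues that passed the test. Rps27 itself had a dim probe set with 162, 133, 316, 180 and 163 in Irf4+/+ and 201, 218, 175, 154 and 221 in Irf4-/- samples. One Irf4+/+ sample, replicate 3, stood far above the rest, and the groups overlapped throughout (log2 fold change 0.07, 95% interval -0.31 to 0.45). The interval of Rps27l, -0.78 to -0.46, lay below it, but the difference between the 2 genes was not tested. Rpl22, whose product represses its paralogue Rpl22l1, had a difference of 0.11 (adjusted p = 0.195), and Rpl22l1 one of 0.08 (adjusted p = 0.27).

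Rpl7 and Rpl7l1 had differences of 0.02 and -0.09, and neither passed. The second probe set of Rpl7l1, with a mean of 1170 beside 1308 for the first, was called lower without overlap between groups (1253 ± 68 against 1087 ± 41.8, log2 fold change -0.20, limma adjusted p = 0.00883). With median centring, or centring on the genes outside the family, Rpl7l1 was called lower. Rpl39 and Rpl39l had differences of 0.08 and -0.16, with intervals of -0.26 to 0.42 and -0.47 to 0.16. Rps4x had one of 0.06, and its copy Rps4l, with signals of 16.5 to 82.1 in Irf4+/+ and 41.3 to 95.6 in Irf4-/- samples, one of 0.67 (adjusted p = 0.137). The 2 lowest Rps4l values, 16.5 and 19.1, were both Irf4+/+, and the other 8 overlapped. Rpl3l, which is known from muscle, read 3.7 to 23.9 in Irf4+/+ and 7.3 to 20.9 in Irf4-/- samples, under the filter.

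The choice of probe set mattered for several genes. In total 100 probe sets of the members passed the filter, of which 22 were called higher and 14 lower (36%, against 42.5% of all 22535 probe sets with 1 symbol). Of the 68 subunit protein probe sets with a mean of at least 1000, 20 were higher and 0 lower with limma, and 29 had an unadjusted p under 0.05. Their median was 0.110. Of the 22 dimmer ones 2 were higher and 9 lower, with a median of -0.374. Under the deposited scaling most calls of subunit protein probe sets were thus higher among bright ones and lower among dim ones. By share, 29.4% of the bright ones were higher. Of all genes with a mean of at least 1000, 29% were higher and 38.3% lower. Shares over all probe sets of like brightness were not computed. For the fits that follow, no share over all probe sets is given, so their counts cannot be set against the whole array. With median centring the bright probe sets split 4 to 0 and the dim ones 2 to 11, and with quantile normalization 13 to 1 and 2 to 10. Without Irf4-/- replicate 4, 43 bright probe sets were higher, against 10 without Irf4+/+ replicate 2 or 4 or Irf4-/- replicate 1 or 5. The split at a signal of 1000 was chosen after the values were seen.

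Of the 22 members with several tested probe sets, 3 had calls in both directions. For Rps9 the brightest, with a mean of 14493, was not called (0.07), one with a mean of 6086 was higher (0.78) and one with a mean of 162 was lower (-0.80). For Rps20, 2 probe sets with means of 16308 and 16275 had differences of 0.15, not called, and 0.14, called higher, while the dimmest, at 59.7, was lower (-0.66). For Rps24, 2 bright probe sets were higher at 0.25 each and a dim one with a mean of 155 was lower (-0.60). The brightest probe sets of these 3 genes were not called. Which transcripts each probe set reads was not examined here.

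Dim probe sets were also called lower for Rpl41 (-0.78 and -0.63), Rpl37a (-0.60) and Rps18 (-0.57), and called higher for Rpl22 (0.54) and Rps3 (0.46). The brightest probe set of each of these 5 genes was not called. For Rpl35 all 5 bright probe sets were called higher, from 0.18 to 0.23, and its dimmest had a difference of -0.27 and was not called. Of the 4 members called lower, Rps27l had 3 probe sets, while Rpl12, Rps25 and Rps19bp1 had 1 each.

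**Figure D4:**
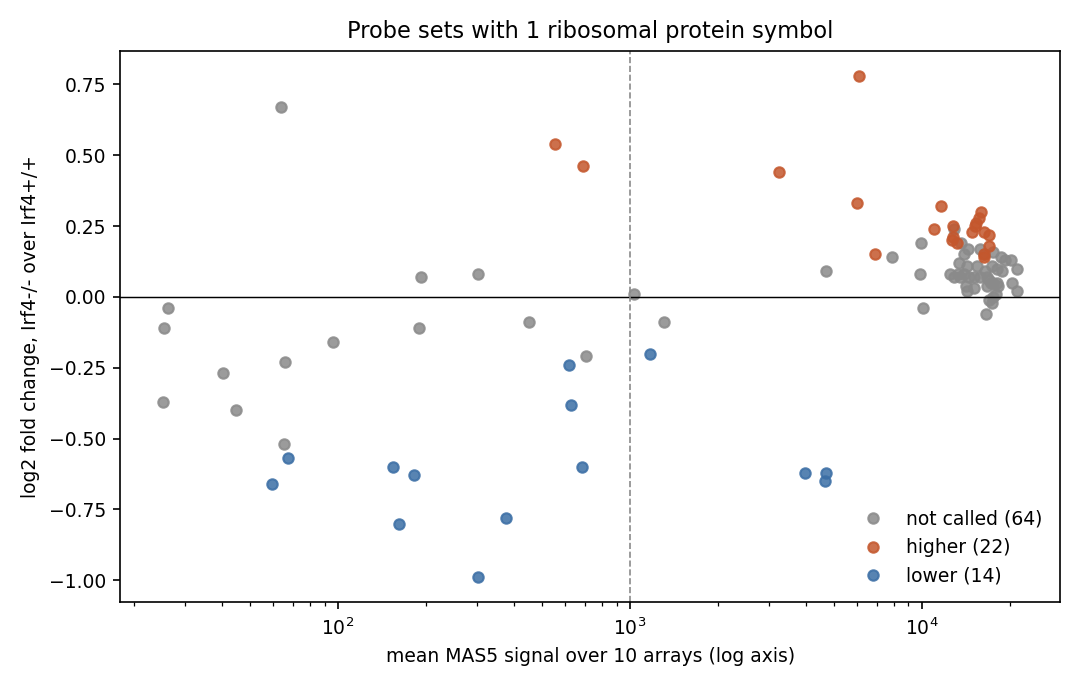
Log2 fold change (Irf4-/- over Irf4+/+, y axis) against the mean signal over 10 arrays (log axis) for the 100 tested probe sets of the members, coloured by call; the dashed line marks a signal of 1000. Bright probe sets crowd between 0 and 0.3, the dim ones spread mostly below 0, and the 3 bright ones at -0.62 to -0.65 are those of Rps27l; with median centring only 4 bright subunit probe sets stay higher.

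The probe sets that list a ribosomal protein symbol among several symbols cannot be given to 1 gene, but they cover much of the family that the name rule leaves out. Of 110 such probe sets 106 were tested; 35 were higher and 8 lower (40.6%, against 42.4% of all probe sets in that fit), with a median of 0.109. Under quantile normalization the split was 29 to 14, under median centring 12 to 8, and with centring on other genes 19 to 8. Bright shared probe sets, 84 of them with a mean of at least 1000, had a median of 0.111. That is close to the 0.110 of the bright subunit protein probe sets with 1 symbol.

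Genes that assemble and regulate ribosomes were fitted in the same model and are given beside the family, against the 47.2% of all genes called. No test compared a list with the family, and the lists were not matched to it in signal. Of the 42 tested subunit proteins, 36 had a mean of at least 1000. The 68 subunit protein probe sets at or above 1000 had a median of 0.110, and the 22 dimmer ones -0.374. The part of signal level in the differences between lists was not tested. Of 30 nucleolar biogenesis factors with Myc, 28 fell and 1 rose, with a median log2 fold change of -0.778. Myc itself read 2646, 2607, 2609, 2543 and 2781 in Irf4+/+ and 1366, 1147, 1141, 1164 and 1206 in Irf4-/- samples. The Irf4-/- samples held less than every Irf4+/+ sample (log2 fold change -1.13, limma adjusted p = 1.38e-10). Gnl3, the nucleolar GTPase nucleostemin, fell most (-1.34), and Nolc1, which binds small nucleolar ribonucleoproteins, was 2.14 times as high in Irf4+/+ as in Irf4-/- samples. Ubtf, which recruits RNA polymerase I to ribosomal DNA, was the 1 that rose (0.20), and Polr1c (-0.15) was the 1 that did not pass.

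The list of ribosomal protein chaperones and late assembly factors gave a similar split: 16 of 23 fell and 4 rose, with a median of -0.447. The 4 include Aar2 (0.25), whose product is not known as either, so these values hold for the list as drawn up. Ltv1, which escorts the pre-40S particle, read 1138, 1184, 1168, 1167 and 1177 in Irf4+/+ and 664, 591, 639, 601 and 708 in Irf4-/- samples. The groups lay well apart (log2 fold change -0.86, limma adjusted p = 5.95e-09). Rrs1, which brings the 5S particle to the pre-60S subunit, fell by 0.78, and Tsr1 by 0.61. Chaperones of single ribosomal proteins were not uniform: Grwd1, the chaperone of Rpl3, fell by 1.05 and Tsr2, the chaperone of Rps26, by 0.56, while Pdcd2, the chaperone of Rps2, had 0.17 and its relative Pdcd2l -0.03, neither called. Sbds (0.32) and Zfp622 (0.40), which act late on the large subunit, had differences above 0.

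Regulators of TOP messages and mTORC1 gave 7 lower and 1 higher of 14, with a median of -0.236. Larp1b, a relative of the TOP-binding protein Larp1, fell by 0.81, and Eif4ebp1, the translational repressor that mTORC1 phosphorylates, by 0.64. Pdcd4, an inhibitor of the helicase Eif4a, rose (0.93; 861 ± 98.3 against 1640 ± 97). Larp1 itself had -0.30 and Mtor -0.26. Taking the dimmest probe set of each gene, the median of this list was 0.007 and the call of Eif4ebp1 was lost.

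Of 19 tested elongation factors and other genes whose messages are known to carry a TOP start, 7 rose and 4 fell, with a median of 0.045 that turned to -0.016 with quantile normalization, -0.029 with median centring and -0.003 with centring on other genes. Eef1a1 (-0.01), Eef2 (0.01) and Eef1b2 (0.02), which carry out elongation, and Tpt1 (0.05) had differences near 0. Eif3k, a subunit of the initiation factor that binds the 40S subunit, rose by most (0.64; 2970 ± 334 against 4628 ± 486), followed by Eif4a2 (0.46) and the intermediate filament gene Vim (0.39). Fau, which encodes the small-subunit protein Rps30 fused to a ubiquitin-like protein and falls outside the name rule, rose from 10572 ± 545 to 13681 ± 1657 (log2 fold change 0.36, limma adjusted p = 0.000599). Its groups did not overlap, although Irf4-/- replicate 4 was the lowest of its group at 11292.

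The proteins of the mitochondrial ribosome are encoded by a separate set of nuclear genes. Of 76 tested, 40 fell and 4 rose, with a median of -0.224, against 4 lower and 8 higher of 48 cytosolic members. No test of the difference between the 2 families was made, and they were not matched in signal. Their median stayed between -0.299 and -0.213 under the other scalings. Mrps6 (-1.13), Mrps18b (-0.90) and Mrps5 (-0.61) were the lowest in p.

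**Figure D5:**
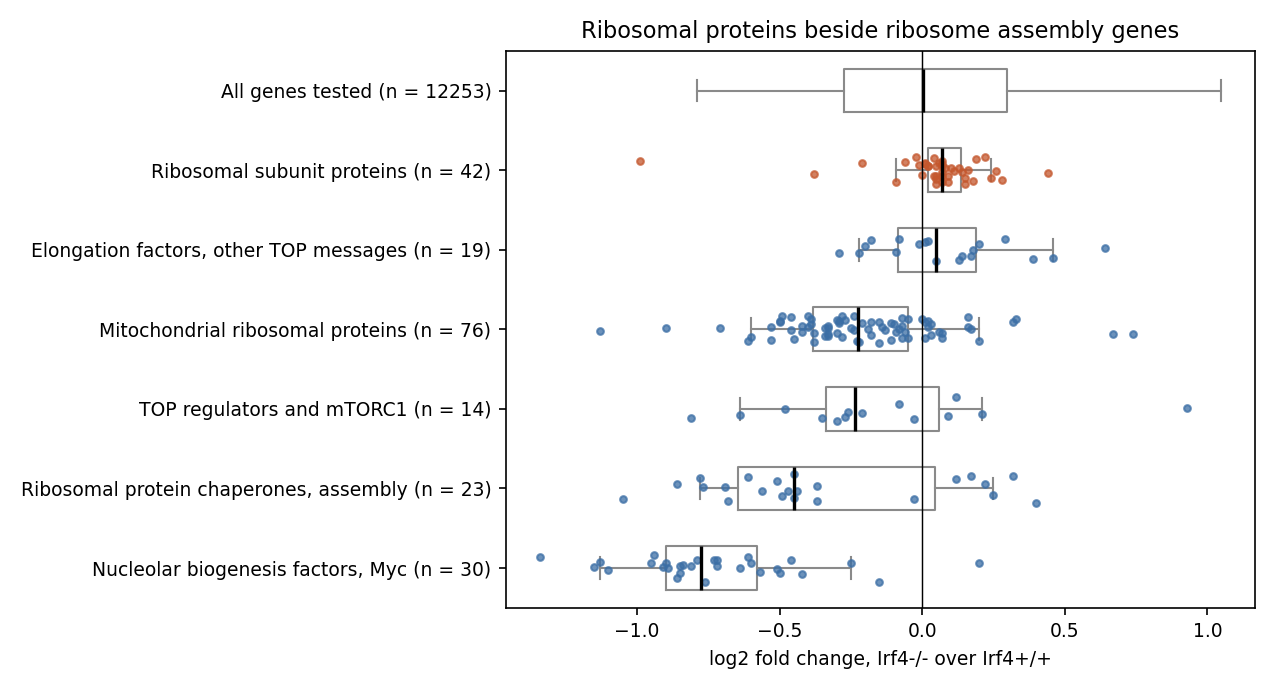
Log2 fold changes (x axis, Irf4-/- over Irf4+/+) of all tested genes, the 42 tested subunit proteins and 5 lists; points are genes, boxes the quartiles with the median, and whiskers run from the 5th to the 95th percentile. The subunit proteins (median 0.069) lie in a narrow band near 0, with Rpl12 far to the left. The nucleolar list (median -0.778) and the assembly list (median -0.447) lie below that band. With quantile normalization or median centring the subunit median is just below 0. Lists were not matched in signal: subunit protein probe sets with a mean under 1000 had a median of -0.374, brighter ones 0.110.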

How the data were processed

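Gene expression was measured in 10 samples on 1-colour Affymetrix arrays. The authors deposited 1 linear intensity (the MAS5 signal) for each probe set and array, per the submitters' processing notes, which name no MAS5 version or scaling target. The mean after trimming 2% of the values at each end was 250 on every array, so no further scaling was applied. MAS5 subtracts mismatch probes, which makes dim signals noisy on the log scale.

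Gene symbols came from the platform annotation: of 45101 probe sets, 34945 had 1 symbol, 932 had several, 9160 are unnamed here and 64 were controls. A pseudocount of 7.9, the 20th percentile of the values, was added before taking log2, so fold changes of dim genes are understated. Probe sets with a mean under 25.11, the 40th percentile of the means, were left out, and the brightest probe set of each gene was kept, which left 12253 genes. Genotype was fitted with limma 3.58.1 in R 4.3.3 (lmFit, then eBayes with trend = TRUE); p-values are two-sided and Benjamini-Hochberg adjusted over all genes, or over all probe sets for probe set results, and a call is an adjusted p under 0.05. The procedure was tested on simulated data. The 18S control was compared by an exact permutation test.

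The members, lists and tests were chosen with earlier results of these data known. Named are Irf4, the called members, the 4 members of smallest difference, paralogue pairs, members with discordant probe sets, Rplp0 and Rpsa, and up to 3 genes of each list with the smallest p; other list genes were picked with their values known. Alternatives were different pseudocounts, filters, scalings, variance models, array weights, a replicate block, other choices of probe set, and each array left out. Replicate numbers are not stated to pair the samples, and the samples were fitted as unpaired. The correlations of same-numbered deviations were -0.04 to 0.051. They were not compared with those of differently numbered samples, so they cannot exclude a pairing.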

Additional observations from a re-analysis of the deposited data

Results flagged for a closer look

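In 8 of the 98 groups of 5 signals examined, 1 per named gene and genotype, the highest or the lowest array lay far from the others by Dixon's criterion, which chance meets in about 1 group in 20. Of these, 4 concern Irf4+/+ replicate 3, the highest of its group in each: Rpl7a read 18480 there (next 16707), Rps24 17243 (next 16237), Rps4x 17432 (next 16466) and Rps27 316 (next 180). Rpl22 read 12307 in Irf4+/+ replicate 2, the next lowest being 13770. Rpl11 read 10099 in Irf4-/- replicate 4, the next lowest being 12029, in step with the low family level of that array. Outside the family, Larp1b read 715 in Irf4+/+ replicate 1 (next 653) and Myc 1366 in Irf4-/- replicate 1 (next 1206). No explanation of these values was tested.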

How the results depend on the processing

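The 4 lower and 8 higher members were recomputed under 24 alternatives. The higher count was 4 with no filter on low values, with centring on genes outside the family or with no variance trend, 3 without probe sets of the types _s_at, _x_at and _a_at, and 1 with median centring. The lower count was 8 with those types left out or with the dimmest probe set of each gene, and 2 for subunit proteins only, a count added after seeing the data, as was that with shared probe sets. With those types left out 25 members remained and the median was -0.092. Leaving out 1 array gave 4 to 21 higher, 3 to 4 lower and a median of 0.04 to 0.11. Of the probe sets, 12 were higher with no filter or with centring outside the family, 6 with median centring, 9 with no variance trend and 56 with shared probe sets included, when 22 were lower; leaving out 1 array gave 12 to 46 higher and 13 to 15 lower. The 18S difference ranged from 1.58 to 1.91 without 1 array.

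Results reversed only where another probe set of the gene was tested, the one without a shared-type suffix or the dimmest: Rpl35 at -0.27 (adjusted p 0.353 and 0.389), Rps20 at -0.66 (0.017 and 0.0215), Rps9 at -0.80 (4.89e-05 and 7.78e-05) and, for the former choice, Rps24 at -0.60 (0.000327). Of 1156 results for single genes, 1083 kept direction and side of the threshold, 51 lost and 15 gained a call; 53 of those kept had a changed sign but were called under neither setting. The replicate numbers are not stated to pair the samples. With the replicate block 8 members were higher and 5 lower, with a median of 0.067.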
